A study of Rattus norvegicus with 8 samples.

Results

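The middle segment of rat chromosome 7 is a stretch of 48.3 Mb around the oncogene Myc, grouped because the signal of its genes was shifted between an early and a late culture of NR8383 cells. Its members were chosen from measured values: the limits enclose the array probes on chromosome 7 of genome build rn4 whose lower coordinate lies between 65717814 and 113999999, and the rule rests on the shift seen at late passage on these same arrays. The stretch holds 545 of the 45598 distinct probes on the array, for 443 gene names, and no probe was removed by the names that the rule leaves out. Of these 443 genes, 189 had a probe well above background on all 4 arrays of at least 1 group and are called measured here, of 15643 measured genes in all. Because the difference between passages chose the segment, every difference of its own genes is a description without a test.

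NR8383 is a macrophage line established by lavage of the lung of a normal rat, and its cultures hold attached and floating cells side by side. Cells at passage 20 (P20) and at passage 200 (P200) were compared, with 4 biological replicates each. The labels name no genetic change and no added agent in either group. Both were grown in DMEM with heat-inactivated fetal bovine serum, glutamine, antibiotics and an antifungal, and seeded in flasks before RNA was taken. Passage number counts how often a culture was split, and only 1 line was compared at 2 passage numbers, so differences due to passage and those due to other histories of the 2 cultures cannot be told apart. Total RNA was labelled with Cy3 and hybridised singly to 8 arrays. How the replicates of a passage were kept apart is not given in the sources used here, so the spread between arrays may be partly technical.

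Myc encodes a basic helix-loop-helix protein that binds DNA with its partner Max at E-box sequences and drives genes of ribosome assembly, nucleotide synthesis, glycolysis and the cell cycle. The Mxd proteins, Mxi1 and Mnt compete for Max and repress the same sites. Myc shares its chromosome arm with genes of many other functions, among them initiation factors of translation, subunits of cohesin and of the respiratory chain, and the kinase Cdk4. DNA copy number was not measured in these samples.

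Cdk4, the kinase that drives cells through the G1 phase, is a textbook target of Myc and lies next to the lower limit of the segment. Its promoter is shown because it carries the E-box CACGTG, the motif that Myc and Max prefer, and it stands beside the promoters of a gene whose difference was larger than the regional one (Lrp1) and of a gene that went the other way (Ddit3). Each line gives the 250 bases before the RefSeq gene start on assembly GRCr8, 5′ to 3′ on the strand of the gene, with CACGTG in capitals. The Cdk4 stretch is chr7:64771203-64771452 on the plus strand, that of Lrp1 is chr7:65346197-65346446 on the minus strand and that of Ddit3 is chr7:65001445-65001694 on the plus strand. These GRCr8 positions cannot be compared with the rn4 positions of the probes.
Cdk4: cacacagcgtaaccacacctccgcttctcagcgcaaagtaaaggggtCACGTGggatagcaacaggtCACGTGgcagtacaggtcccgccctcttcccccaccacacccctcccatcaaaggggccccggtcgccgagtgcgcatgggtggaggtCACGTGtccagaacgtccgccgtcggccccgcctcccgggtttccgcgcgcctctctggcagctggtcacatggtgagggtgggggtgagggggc
Lrp1: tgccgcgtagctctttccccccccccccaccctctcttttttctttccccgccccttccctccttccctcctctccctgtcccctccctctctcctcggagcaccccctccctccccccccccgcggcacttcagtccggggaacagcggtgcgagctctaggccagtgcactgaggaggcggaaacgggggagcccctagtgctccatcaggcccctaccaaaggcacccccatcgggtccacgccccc
Ddit3: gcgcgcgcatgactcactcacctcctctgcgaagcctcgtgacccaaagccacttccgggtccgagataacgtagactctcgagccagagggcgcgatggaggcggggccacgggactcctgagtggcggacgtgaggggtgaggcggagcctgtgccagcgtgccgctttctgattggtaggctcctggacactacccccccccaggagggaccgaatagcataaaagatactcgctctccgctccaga
The motif CACGTG, which reads the same on both strands, stood 3 times before Cdk4, starting at -203, -183 and -95 from the gene start, and in neither of the other stretches. Cdk4 was picked for the motif and the other genes for their differences, so no link of motif and difference is read from this contrast. The 250 bases held 20 CpG dinucleotides before Cdk4, 13 before Lrp1 and 21 before Ddit3, and their GC contents were 66.8%, 68.8% and 63.6%. The motif was present in 6.42% of the 33469 promoters of the RefSeq table, each reaching from 250 bases before to 50 after a gene start. Among the 9827 measured genes that matched that table, 9.22% had the motif. Only 16 of the 189 measured genes of the segment matched that table, so a check of the share of its promoters with the motif is void.

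All 8 arrays lay on 1 slide and were read in 1 scan. On each array 51.0% to 54.5% of spots exceeded background clearly, and none was saturated. Of 10 macrophage markers, 9 had a probe, and 7 of these were well above background on all 8 arrays, namely Ptprc, Cd68, Csf1r, Spi1, Lyz2, Cd14 and Mrc1. Cd14 and Mrc1 differed most among these, by -0.91 and 0.51 (P200 minus P20). Adgre1 was above background on no array and the alveolar macrophage receptor Marco on 1 P200 array. The summed level of the macrophage list ran from 7.23 to 7.57 on P20 arrays and from 7.22 to 7.33 on P200 arrays, and most of that sum is Lyz2. Of the 15 listed markers of epithelium, fibroblasts, endothelium and lymphocytes on the array, Dcn, Pecam1 and Cdh5 were above background on all 8 arrays. Levels below are log2 of the processed signal less the 75th percentile of the array, so that a gene at 0 is as bright as the 75th percentile, and differences are P200 minus P20 on that scale, with the standard error (SE) of the limma fit and n = 4 arrays per group.

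Genes of the segment were brighter at P200 by a median of 0.29, a ratio of 1.23. The quartiles of the differences were 0.11 and 0.46, and 154 of 189 genes lay above 0. Set against the P20 mean of each gene, the median over the segment was -0.03, 0.01, 0.01 and 0.02 on P20 arrays 1 to 4 and 0.32, 0.28, 0.27 and 0.33 on P200 arrays 1 to 4. Every P200 array lay above every P20 array, and the SD between arrays of a group was 0.03. Chromosome 7 below the segment had a median difference of -0.01 over 379 measured genes, and the other chromosomes had one of -0.00 over 14095. Chromosome 7 above the segment had one of 0.33 over 368 genes, so that no fall of the median marked the upper limit.

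**Figure D1:**
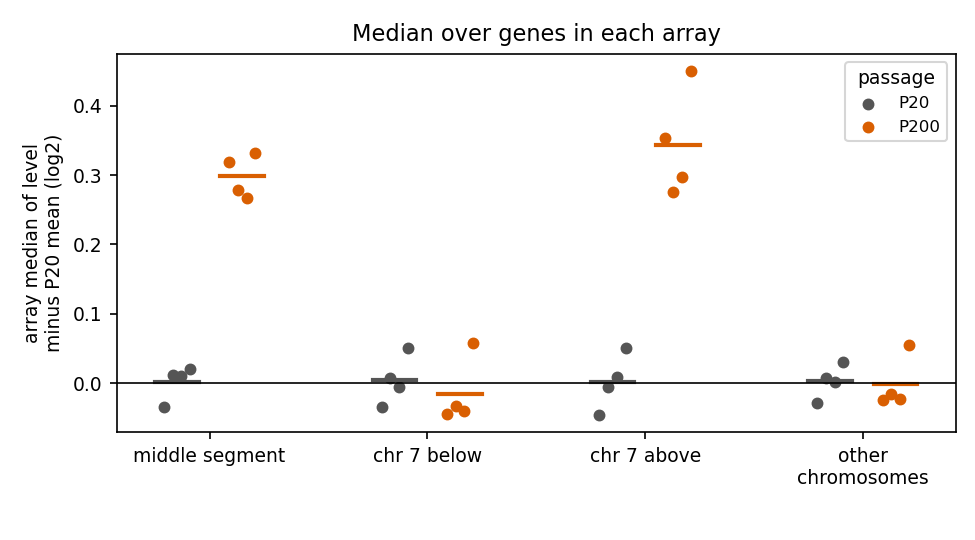
Median over genes of the level on each array less the P20 mean of the gene (log2), for the segment, chromosome 7 on either side of it and the other chromosomes. Points are arrays (4 per group), lines their means. The P200 arrays sit between 0.27 and 0.33 in the segment and between -0.02 and 0.05 on the other chromosomes.

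All P200 arrays lay above all P20 arrays for 102 of the 189 genes, against 9.66% of all measured genes, and below for 9, against 9.76%. By limma with Benjamini-Hochberg adjustment over all 15643 genes, 74 genes of the segment were called higher (915 of all genes, 5.85%) and 7 lower (874, 5.59%). These counts follow from how the segment was chosen. With each array centred on its own median, 736 of all genes were called higher and 419 lower, and the segment median was 0.36, against 0.061 on the other chromosomes. Without P20 replicate 3, 558 of all genes were called lower. Without P200 replicate 4, the array whose segment median was highest, 14 genes in place of 9 had all P200 arrays below all P20 arrays. Such a count can only stay or rise when an array is left out. The arrays lay in 2 rows of the slide, 1 P20 and 3 P200 arrays in the first and 3 P20 and 1 P200 array in the second. The segment median was 0.32 within the first row and 0.31 within the second.

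In windows of 5 Mb, chromosome 7 ran between -0.14 and 0.06 in the 13 windows from its start to 65 Mb, and the next window, from 65 to 70 Mb, had a median of 0.31 over 40 genes. Of the 10 windows of the segment, 8 had medians between 0.20 and 0.41. The window from 80 to 85 Mb had -0.55 over 8 genes. Of these, 4 were the adjacent unnamed or retrovirus-like loci described below, which may not be independent of each other. The 3 genes with a symbol there had a median of 0.28. The window from 105 to 110 Mb had -0.03 over 7 genes, and its 3 genes with a symbol had a median of 0.94, with Khdrbs3 above background on no P20 array and Fam135b on 2 of them. The windows above the segment, from 115 to 145 Mb, ran between 0.28 and 0.37, much like most windows inside it.

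**Figure D2:**
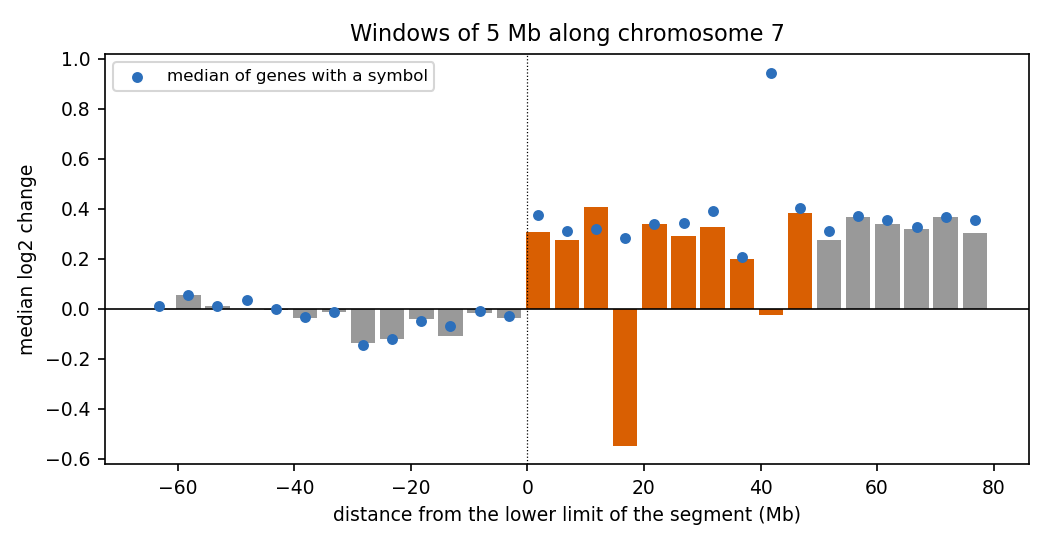
Median log2 difference (P200 minus P20) in windows of 5 Mb along chromosome 7, by distance from the lower limit of the segment (dotted line). Bars are all measured genes, coloured where a window holds genes of the segment, and points are genes with a symbol. Medians step from -0.04 in the last window below the limit to 0.31 in the first above it, and the window with the lowest bar (-0.55) has a median of 0.28 for its genes with a symbol.

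Just outside the lower limit lay Ppm1h, Mon2 and Usp15, with differences of 0.04, -0.03 and -0.19. Just inside it lay the unnamed RNA LOC102552423 with 1.05, Cdk4 with 0.32 and its neighbour Tspan31 with 0.56. The 2.85 Mb between the last measured probe below and the first one inside held 12 probes that were not measured, so the position of the step is known only to within that gap. At the upper limit LOC102547932, Zfp707l1 and LOC103692939 lay inside with 0.46, 0.48 and 0.41, and Zfp707, the polarity gene Scrib and the splicing factor Puf60 lay outside with 0.43, 0.56 and 0.33.

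**Figure D3:**
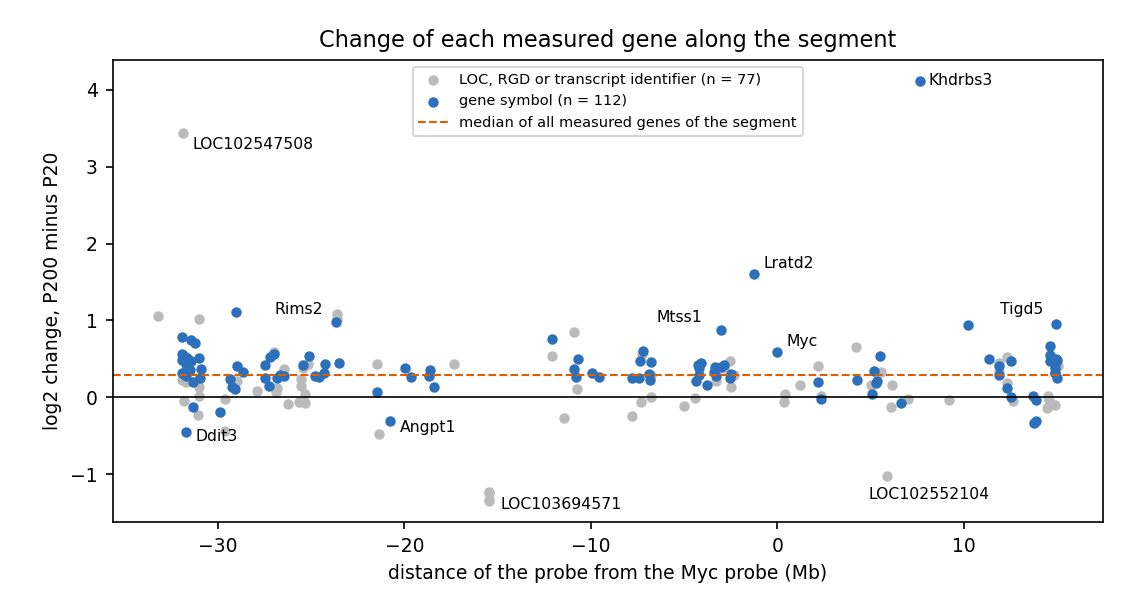
Log2 difference (P200 minus P20) of each of the 189 measured genes against the distance of its probe from the Myc probe, with the segment median of 0.29 as a dashed line. Most genes with a symbol lie near the dashed line, while Lratd2 (1.60) and a group of loci between -1.35 and -1.23 lie far from it. Khdrbs3 and Rida were above background on no P20 array, so the heights of their points are not measured differences.

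Myc itself was measured by 1 probe at chr7:98957687-98957746 of rn4. Its level was 1.50, 1.48, 1.43 and 1.36 on P20 arrays 1 to 4 and 2.02, 1.94, 2.09 and 2.11 on P200 arrays 1 to 4. The groups did not overlap, and the difference was 0.59 ± 0.06 (SE), a ratio of 1.51, which is above the regional median of 0.29. It was 0.54 within the first slide row and 0.59 within the second, and ran from 0.57 to 0.63 with any 1 array left out.

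Of the 12 listed genes of the Myc neighbourhood, 7 were measured, and besides Myc only Lratd2, 1.27 Mb below it, had groups that did not overlap. Lratd2, which encodes a protein with an LRAT domain, had the largest difference of any gene of the segment measured on all 8 arrays. Its level was -4.74, -4.73, -4.94 and -4.80 on P20 arrays 1 to 4 and -3.20, -3.38, -3.16 and -3.06 on P200 arrays 1 to 4, a difference of 1.60 ± 0.09. With normexp background correction it was 0.94. Trib1, the pseudokinase that directs the transcription factor C/EBPalpha to degradation, had 0.31 ± 0.14, and Nsmce2, a SUMO ligase of the SMC5/6 complex, 0.26 ± 0.11.

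Sqle, the squalene epoxidase of cholesterol synthesis, had levels of 1.41, 1.28, 1.65 and 1.47 at P20 and of 2.67, 1.29, 1.88 and 1.68 at P200. Its difference of 0.43 ± 0.26 rested on P200 replicate 1, without which it was 0.16. On the other side of Myc, Cyrib, which restrains the GTPase Rac1, had 0.20 ± 0.09. Asap1, an activator of Arf GTPase turnover, had -0.02 ± 0.07 and did not share the shift. Pvt1, Tmem75 and Ccdc26 had no probe under these names, and Gsdmc and Adcy8 were not measured above background.

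Genes that exceeded the regional median by at least 0.58 numbered 11, of which 7 were above background on all 8 arrays with groups that did not overlap. Among the latter, 3 had a gene symbol: Lratd2, Rims2 and Tigd5. The 7 include ENSRNOT00000048584, whose difference of 1.01 fell to 0.28 without P20 replicate 3. They also count LOC103690326 and ENSRNOT00000006243 as separate genes, although both carry the same description. Rims2, a scaffold of the site of vesicle release in neurons and endocrine cells, lay at -3.80, -3.91, -3.94 and -4.23 at P20 and at -2.98, -2.88, -2.78 and -3.33 at P200, a difference of 0.98 ± 0.14. Tigd5, derived from a transposase, was dim, with P20 levels from -5.93 to -5.13 and P200 levels from -4.86 to -4.42, a difference of 0.96 ± 0.19. With normexp the differences of Rims2 and Tigd5 were 0.63 and 0.49.

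Khdrbs3, a regulator of splicing that binds RNA, was well above background on no P20 array and on all 4 P200 arrays. Its signals were -8.65, -8.56, -6.79 and -6.99 at P20 and -3.56, -3.51, -3.67 and -3.81 at P200. Set against the lowest signal well above background of each P20 array, or the signal of the probe where that was higher, it was at least 5.72-fold brighter at P200. That bound holds for the processed signal only: the log2 difference fitted with normexp was 1.38 and that from the series matrix 1.80, both smaller than the bound. The deaminase Rida, which removes reactive intermediates of amino acid breakdown, was at least 1.97-fold brighter on the same scale, with P200 levels between -5.21 and -5.04 and no P20 array above background. Its log2 difference was 0.36 with normexp and 0.57 with the series matrix, again smaller than the bound. No gene of the segment was above background on all P20 arrays and on no P200 array.

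Several features without a symbol were as far from the regional median and are named here after their values were seen. Beside Rims2 lie LOC103690326 and the transcript ENSRNOT00000006243, both described in the files as dendritic cell-specific transmembrane protein, which macrophages need in order to fuse into giant cells. Their differences were 1.02 ± 0.06 and 1.08 ± 0.11. Neighbours with the same description may read the same RNA, so the 2 may not be independent measurements. LOC103690326 lay between -2.48 and -2.32 at P20 and between -1.45 and -1.31 at P200, a gap far wider than the spread inside either group. The uncharacterised RNA LOC102547508 lay between -5.72 and -4.78 at P20, with 2 of 4 arrays above background, and between -2.14 and -1.69 at P200, a difference of 3.43 ± 0.21, or 2.09 with normexp. ENSRNOT00000048584, a copy of the respiratory chain gene Uqcrb, had a mean difference of 1.01 that rested on P20 replicate 3 (-2.28, against 0.57 to 0.71 on the other P20 arrays), and it was 0.28 without that array.

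Short of that margin but well above the regional median were Mtss1 (0.87 ± 0.14), which couples membrane bending to actin, Agap2 (0.78 ± 0.06), an Arf-regulating protein next to Cdk4, the endocytic receptor Lrp1 (0.74 ± 0.10) and the mitochondrial topoisomerase Top1mt (0.67 ± 0.08), all chosen after their values were seen. Agap2 levels were -1.10, -1.10, -0.998 and -1.10 at P20 and -0.25, -0.32, -0.32 and -0.27 at P200. Lrp1 levels were -0.30, -0.19, -0.19 and -0.29 at P20 and 0.51, 0.26, 0.50 and 0.74 at P200. Neither gene had a P200 array inside its P20 range.

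**Figure D4:**
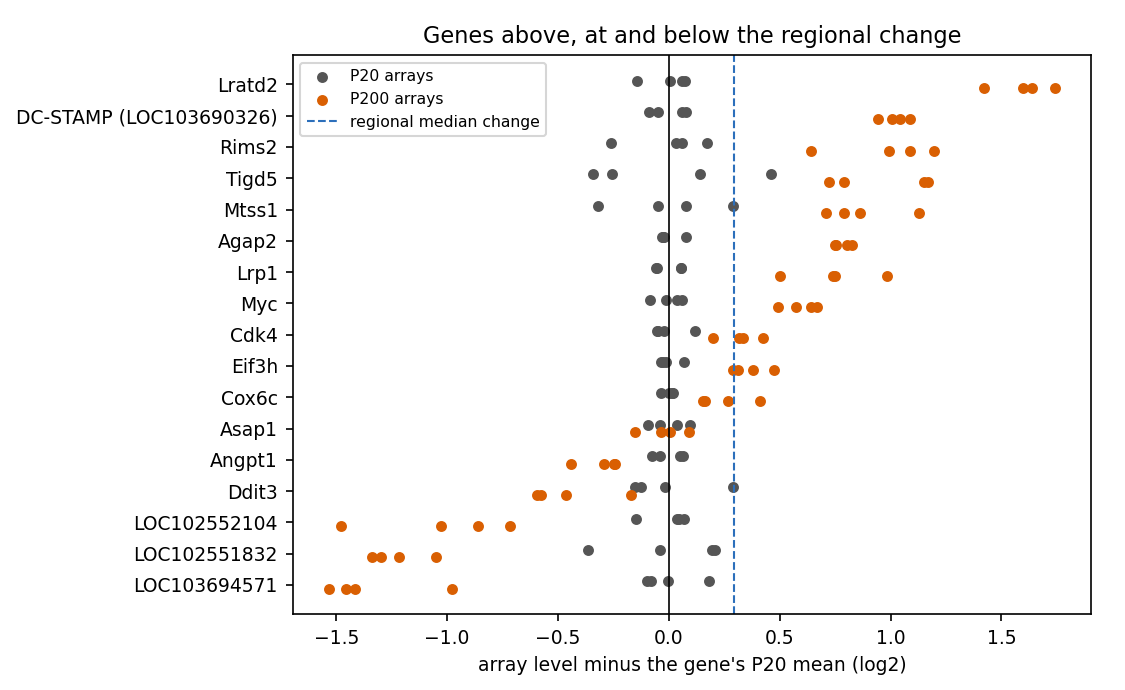
Level of 17 genes of the segment on each array less the P20 mean of the gene (log2). Points are arrays, 4 per group, and the dashed line is the segment median of 0.29. Lratd2 (1.60) lies furthest to the right, Cdk4, Eif3h and Cox6c scatter about the dashed line, and the last 5 genes lie to the left of 0 at P200.

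Within 0.15 of the regional median, with P200 arrays above all P20 arrays, lay 54 genes, and 44 of them had a symbol. The brightest were Pabpc1, which coats the poly(A) tail of mRNA, Cox6c and Ndufb9 of the respiratory chain, the initiation factor subunits Eif3h and Eif3e, the secreted matrix protein Ccn3, the phosphatidylserine synthase Ptdss1 and the pore former of pyroptosis Gsdmd. Eif3h lay at 3.76, 3.77, 3.79 and 3.87 on P20 arrays 1 to 4 and at 4.18, 4.09, 4.11 and 4.27 on P200 arrays 1 to 4, a difference of 0.36 ± 0.06. Eif3e lay at 2.24, 2.20, 2.21 and 2.25 and then at 2.72, 2.66, 2.58 and 2.45, a difference of 0.38 ± 0.07. Cox6c went from 4.84, 4.86, 4.81 and 4.86 to 5.00, 5.25, 5.11 and 5.00, a difference of 0.25 ± 0.07. The P20 arrays of these genes lay close together. That the lowest P200 array lay above them follows from how these genes were chosen.

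The other bright followers had Ndufb9 at 0.40 ± 0.07, Ptdss1 at 0.37 ± 0.07, Gsdmd at 0.32 ± 0.08, Ccn3 at 0.26 ± 0.07 and Pabpc1 at 0.25 ± 0.09. Cdk4 lay at 1.74, 1.91, 1.74 and 1.77 at P20 and at 2.13, 1.99, 2.11 and 2.21 at P200, and its difference of 0.32 ± 0.07 was near the regional median. The order of these genes among themselves was not tested.

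The lists for genes of the segment are given by function, without a test between them. Each count here is beside the 9.66% of all genes with P200 arrays above all P20 arrays and a median of 0.00 over all genes. In the segment, which was chosen for its shift, the share was 54.0% and the median 0.29. Among its genes with a RefSeq symbol they were 68.8% and 0.33, so high counts in a list repeat the regional share. For translation and ribosome assembly, 8 listed genes were measured inside the limits, 7 had groups that did not overlap, all 7 higher at P200, and the median difference was 0.34. The elongation factor subunit Eef1d had 0.46 ± 0.08, with P20 levels from 4.60 to 4.75 and P200 levels from 5.06 to 5.31. Rpl30, a protein of the large ribosomal subunit, had 0.11 ± 0.09 from its brightest probe, and -0.03 as the mean of its 3 probes, so its direction is not settled. For the 7 genes of cohesin, replication and nuclear DNA proteins, 5 had groups that did not overlap, and the median was 0.29. The cohesin subunit Rad21 lay between -0.43 and -0.25 at P20 and between 0.11 and 0.21 at P200, a difference of 0.50 ± 0.06, and Chrac1, a subunit of a chromatin remodelling complex, had 0.29 ± 0.08.

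The 7 measured genes of ubiquitin and protein quality had a median of 0.28, and 5 had groups that did not overlap. They include the ubiquitin ligase Rnf19a (0.53 ± 0.06), Derl1 (0.21 ± 0.06) of export from the endoplasmic reticulum, and Emc2 (0.26 ± 0.08), a subunit of the complex that inserts membrane proteins there. Mitochondrial and vacuolar proteins had a median of 0.31 over 7 genes, 4 without overlap. Uqcrb, a subunit of complex III, had levels of 2.98, 1.87, 3.17 and 3.30 at P20 and of 3.40, 3.42, 3.34 and 3.20 at P200. Its difference of 0.51 ± 0.28 rested on P20 replicate 2 and was 0.19 without it.

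Signalling and cytoskeleton genes had a median of 0.34 over 9, with 8 higher and Angpt1 lower without overlap. The adaptor Ywhaz had 0.29 ± 0.07, and the stress-responsive Ndrg1 had 0.22 ± 0.07. Of 10 listed matrix and secreted proteins only 4 were measured, with a median of 0.22, among them the heparan sulfate polymerase Ext1 at 0.27 ± 0.11. The 5 measured genes of the transcription factor list, on which Khdrbs3 also stood, had a median of 0.54. Khdrbs3 is counted among the 5 but was above background on no P20 array. Its difference is therefore not a measured one, and the median depends on counting it. Klf10, induced by TGF-beta, lay between -0.17 and 0.01 at P20 and between 0.21 and 0.66 at P200 (0.54 ± 0.10). Trps1, a GATA-type repressor, had 0.76 ± 0.21 with a wide spread at P20 (-2.36 to -1.26), and Zhx1 had 0.38 ± 0.09. Zfat had -0.07 ± 0.15 with groups that overlapped, while 4 of the 5, Khdrbs3 among them, had groups that did not.

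Against the regional shift, 2 genes with a symbol had all P200 arrays below all P20 arrays. Ddit3, the stress-induced transcription factor CHOP, had levels of 1.08, 1.06, 1.50 and 1.19 at P20 and of 1.04, 0.75, 0.63 and 0.61 at P200. The difference was -0.45 ± 0.13, and the brightest P200 array lay just under the dimmest P20 array. Angpt1, a ligand of the endothelial receptor Tie2, lay at 0.31, 0.40, 0.42 and 0.28 at P20 and at 0.06, 0.11, 0.10 and -0.09 at P200, a difference of -0.31 ± 0.07. All 3 measured probes of Angpt1 gave lower values at P200, from -0.43 to -0.31. Each of these genes lay among neighbours with a positive difference: Mars1, the methionyl-tRNA synthetase beside Ddit3, had 0.48, and Eif3e, the next named gene above Angpt1, had 0.38.

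The largest differences against the shift came from 5 loci without a symbol, singled out after their values were seen. Side by side, with the first probe at chr7:83495153-83495212, LOC103694538, LOC103694571, LOC102552117 and LOC102551832 had differences of -1.24 ± 0.12, -1.35 ± 0.13, -1.33 ± 0.15 and -1.23 ± 0.13, and LOC102552104, whose probe begins at 104835731, had -1.02 ± 0.15. The probes of LOC102552117 and LOC102551832 begin at 83497067 and 83497141. Neighbours this close may not be independent measurements, although each is counted here as a gene. The files describe LOC102552117, LOC102551832 and LOC102552104 as MLV-related proviral Env polyprotein-like, that is, as remnants of endogenous retroviruses, and the other 2 as uncharacterised. LOC102551832 lay between -2.35 and -1.78 at P20 and between -3.32 and -3.04 at P200. LOC103694571 had a mean of -3.03 ± 0.13 (SD, n = 4) at P20 and of -4.37 ± 0.25 at P200. Both sets of P200 arrays lay well apart from the P20 arrays. With normexp the 5 differences ran from -0.93 to -0.56, still negative. Such sequences have many near-identical copies, and RefSeq places LOC103694538 on chromosome 2 and LOC103694571 on chromosome Y, so the source of their signal is uncertain. Outside the segment 5 measured genes had the same Env description, 1 of them without a position in the files. They were looked up after these values were seen. By limma 2 were called lower, at -0.32 (adjusted p = 0.00979) and -0.54 (adjusted p = 0.0387), and none higher. Of all genes 5.59% were called lower and 5.85% higher. The other 3 lay between -0.15 and 0.09. Probes of near-identical copies may read the same RNA, so these genes may not be independent of the loci inside the segment.

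The remaining 2 of the 9 genes with lower P200 arrays were ENSRNOT00000010509 (-0.48 ± 0.11) and LOC690713 (-0.12 ± 0.06), a copy of the gene of a Huntingtin interacting protein. Another 27 genes lay within 0.1 of 0, and 7 of them had a symbol. The brightest of these 7 were Oxr1, an oxidation resistance protein (0.07 ± 0.11), Asap1, the adhesion receptor Adgrb1 (0.02 ± 0.15) and the chromatin reader Phf20l1 (0.05 ± 0.10). These values are those of the brightest probe. The 3 measured probes of Oxr1 ran from 0.07 to 0.25, and the 4 of Phf20l1 from -0.02 to 0.17. A run of 5 neighbouring genes with a symbol stood out after the values were seen: Mroh5, Adgrb1, Mroh4, Jrk and Lypd2, over 1.38 Mb from 111470845, had differences from -0.33 to 0.02, and no gene in that run had all P200 arrays above all P20 arrays. Their levels were low, from -4.74 to -2.78. The genes with a symbol on either side of the run were the phosphatase Ptp4a3 with 0.47 and Zfp41 with 0.55.

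How a gene was named went with its difference. The 112 measured genes with a RefSeq symbol had a median of 0.33, and 103 of them lay above 0, whereas the 70 that kept only the name in the files had a median of 0.15. The other 7, with a RefSeq identifier in place of a symbol, had a median of 0.02. On the other chromosomes both kinds had a median of 0.00 or -0.00. Bright features known by a transcript identifier or as a copy of another gene were among the flat ones, such as (chosen after their values were seen) ENSRNOT00000051652, described as similar to ribosomal protein S18 (-0.02), ENSRNOT00000041802, described as ribosomal protein S19-like (-0.04), and RGD1564548, similar to a histone H3 gene (-0.03). Their probes may also read near-identical copies elsewhere in the genome, which was not tested. Of the 119 measured genes named through RefSeq, 117 lie on chromosome 7 in GRCr8 as well.

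The 189 genes were split by level into 3 classes of 63. The 30 genes with a symbol in the dimmest class had a median of 0.44, the 43 in the middle class 0.33 and the 39 in the brightest class 0.30. Over the 112 genes with a symbol, which all come from the same 8 arrays, difference and mean level had a Pearson r of -0.22. Khdrbs3 and Rida are counted in the dimmest class and in this r. They were measured only through their P200 arrays, which makes such genes both dim and higher at P200. No relation of difference to level is therefore read from these values. For 34 genes with several measured probes, the range between probes had a median of 0.09 and was under 0.2 for 26 of them, while for 4 genes (Mtdh, Nab2, Phf20l1 and Rpl30) the probes differed in sign. Fewer cells of a kind and less RNA per cell cannot be told apart in these bulk samples.

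Genes outside the segment that act with Myc or are known targets of it were not used to choose it, so their differences were tested. The lists were drawn up with earlier results of these data known, so the choice of genes may not be independent of the data. Of 21 measured genes of the Myc network, 2 were called higher, 9.52% against 5.85% of all genes, and 0 lower, against 5.59%. The share of all genes includes the shifted parts of chromosome 7. On the other chromosomes 4.45% of genes were called higher and 5.65% lower. At an unadjusted p under 0.05 limma gave 5 network genes higher and 2 lower, 33.3% of the list against 23.7% of all genes. Mxi1, a repressor that competes with Myc for Max, had 0.28 ± 0.07 (adjusted p = 0.0458, P200 arrays above all P20 arrays in 4 of 4), and Mycbp2, a ubiquitin ligase that binds Myc, had 0.27 ± 0.06 (adjusted p = 0.0167, again 4 of 4). Max had 0.15 ± 0.11, and Mxd1, another repressor that pairs with Max, had -0.28 ± 0.08 and missed the threshold (adjusted p = 0.0504). Of the 2 calls none was left without P20 replicate 1, P20 replicate 3 or P200 replicate 3, and 1 without P20 replicate 2, P20 replicate 4, P200 replicate 1 or P200 replicate 2. Without P20 replicate 1 a single network gene was called lower.

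Of 50 measured Myc target genes outside the segment, 2 were called higher (4.0%, against 5.85% of all genes) and 1 lower (2.0%, against 5.59%), and the median difference was 0.03 against 0.00 over all genes. On the other chromosomes, without the shifted parts of chromosome 7, 4.45% of genes were called higher and 5.65% lower. Ppan, a factor of ribosome assembly, had 0.43 ± 0.08 (adjusted p = 0.00761), and Cdkn2b, an inhibitor of Cdk4 that Myc is known to repress, had 0.49 ± 0.13 (adjusted p = 0.0441). Dkc1, the pseudouridine synthase of small nucleolar RNPs and telomerase, had levels of 1.66, 1.73, 1.64 and 1.48 at P20 and of 1.18, 1.00, 0.88 and 0.97 at P200, a difference of -0.62 ± 0.08 (adjusted p = 0.00171). The files give no rn4 position for the Dkc1 probe. Classical targets such as Ncl (0.07 ± 0.08), Npm1 (-0.13 ± 0.11), Odc1 (-0.15 ± 0.06), Ldha (0.06 ± 0.11) and Cad (0.20 ± 0.10) did not pass the test. At an unadjusted p under 0.05, 12 of the 50 passed (24.0%), against 23.7% of all genes. Without P20 replicates 1, 2 or 4 or any 1 P200 array a single target was called higher, and without P20 replicate 2 or P200 replicate 1 there were 2 called lower. Shmt2, a mitochondrial enzyme of serine breakdown that stood on the target list, lies inside the segment and had 0.47 ± 0.15. Rpl3, counted among the 50, lies on chromosome 7 above the segment, where the median was shifted as well, and had 0.19 ± 0.07. The list mixes targets that Myc drives with targets that it represses, such as Cdkn2b. Its counts and median therefore give no direction of Myc activity.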

How the data were processed

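RNA of 4 P20 and 4 P200 cultures was hybridised to single-colour Agilent arrays. Spot intensity was deposited as scanner output, background-subtracted and detrended within each array by Agilent Feature Extraction 11.0.1.1, per the file headers, with no scaling between arrays. The deposited series matrix holds the spot median intensity of the same arrays and served as an alternative. Replicate numbers are those of the scanner files. In the matrix, P200 columns 1 to 4 hold scanner arrays 2, 3, 4 and 1, so the numbering of P200 replicates conflicts between the sources, while their group does not.

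Control spots and outlier spots were left out, spots of a probe were averaged, and 84 probes without a usable spot were dropped. Log2 signal was set relative to the 75th percentile of its array. A probe was measured if well above background on all 4 arrays of a group, and the brightest probe stood for its gene, which gave 15643 genes. Names came from the RefSeq table of GRCr8, and positions are those in the files (rn4). P200 and P20 were compared with limma 3.58.1 in R 4.3.3, two-sided, without covariates, adjusted over all genes at 0.05. The script was tested on simulated data with known changes.

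The members and lists were chosen with earlier results of these data known. Named genes are Myc, the 10 largest differences above the regional median plus 0.58 and the 10 most negative (groups without overlap, all arrays above background), the 8 brightest within 0.15 of the median, the 4 brightest within 0.1 of 0, the largest bounds, the genes next to each limit, the Myc neighbours, the 3 brightest of each other list and called members of the Myc lists. Identifiers, and genes outside this rule, were named after their values were seen. Alternatives were other centring, quantile and normexp normalization, the series matrix, other filters, the mean of probes, slide row and replicate number as blocks, and leaving out each array. Array number limits the precision of every value.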

Additional observations from a re-analysis of the deposited data

Results flagged for a closer look

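Of 154 groups of 4 arrays looked at (76 named genes at each passage and the segment median), 14 had 1 array far from the other 3, where chance alone gives about 1 in 20. Of these, 4 were P200 replicate 4: Cyrib at 1.90, against 2.20 to 2.26 on the other P200 arrays, Eef1d at 5.31, against 5.06 to 5.08, Gsdmd at 2.82, against 2.54 to 2.57, and Jrk at -3.40, against -3.63 to -3.61. P200 replicate 2 was low for Ndrg1, at 0.42 against 0.65 to 0.66, and for Trib1, at -1.98 against -1.68 to -1.65. P200 replicate 1 was low for Mycbp2, at -0.028 against 0.10. P20 replicate 1 was low for LOC102552104, at -3.46 against -3.27 to -3.24, for Zfp707, at -1.30 against -1.19 to -1.17, and for the segment median, at -0.034 against 0.01 to 0.02. P20 replicate 2 was low for Oxr1, at -0.55 against -0.38 to -0.36. P20 replicate 3 was high for Agap2, at -0.998 against -1.10, and low for ENSRNOT00000048584, at -2.28 against 0.57 to 0.71. P20 replicate 4 was low for Mroh5, at -4.47 against -4.02 to -3.93.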

How the results depend on the processing

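The segment median of 0.29 was 0.36 with array medians as the centre, 0.26 with normexp and 0.22 without the background filter, 0.33 over genes named through RefSeq and 0.15 over the others (the last 2 chosen after seeing the data), and 0.28 to 0.31 with any 1 array left out. Medians below the segment, above it and on the other chromosomes were 0.048, 0.39 and 0.061 with array medians and 0.11, 0.26 and 0.093 without the filter. With any 1 array left out they ran from -0.04 to 0.00, 0.31 to 0.36 and -0.02 to 0.00. The segment median less that of the other chromosomes was 0.296 in the main processing and 0.296 with array medians. It was 0.246 with normexp and 0.128 without the filter. Segment genes called higher fell from 74 to 25 without the filter, where more genes were tested. With 1 array left out they numbered 53 to 76, those called lower 5 to 8, and those without overlap 102 to 112 above and 9 to 14 below (14 without P200 replicate 4). Counts without overlap cannot fall when an array is left out, so their ranges do not show how stable they are.

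Over all genes, 386 were called higher and 414 lower without the filter, 419 lower with array medians and 581 lower with slide row as a block, and 656 to 847 higher and 558 (without P20 replicate 3) to 856 lower with 1 array left out. Myc network genes called higher were 0 with array medians, 0 without the filter, 1 with quantile normalization and 1 with the row block, and 0 to 2 with 1 array left out. Lower calls of the network were 1 with quantile normalization and 0 to 1 with 1 array left out. Myc targets called higher were 1 with the series matrix and 0 without the filter, 1 to 2 with 1 array left out, and those called lower 2 with quantile normalization and 1 to 2 with 1 array left out. The cause of these moves was not tested.

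Replicate numbers, which for P200 differ between the scanner files and the series matrix, are shared by name only: deviations of same-numbered arrays correlated at 0.03, 0.13, -0.00 and 0.28. With replicate number as a block, the replicate block left 60 segment genes called higher and 8 lower, 0 network genes and 1 target called higher. Of 1289 values of 76 named genes under these settings, 1251 moved by less than the spread between arrays and 38 by more, mostly dim probes under normexp or the series matrix, and no called one changed sign. Probes not above background at P20 give only a bound, which held for the processed signal and not under normexp or the series matrix for Khdrbs3 and Rida.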
